A study of Mus musculus with 4 samples.

Results

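The genes described here are 42 genes known to be induced by type I interferon and tied to antiviral defence. They were listed by name and not by a measured value, with earlier results of these data known. The list holds 43 genes, of which 42 were among the 27998 genes of the feature list, and the other one, Mx2, was not analysed here. They cover regulators (Irf7, Stat2, Usp18), the Isg15 system (Isg15, Herc6), nucleic acid sensors (Ddx58, Ifih1, Dhx58, Ddx60, Zbp1), the Ifit genes (Ifit1, Ifit2, Ifit3) and the oligoadenylate synthetase family (Oas1a, Oas2, Oas3, Oasl1, Oasl2). They also cover other effectors (Mx1, Rsad2, Cmpk2, Bst2, Isg20, Samd9l, Rtp4), the p200 genes (Ifi203, Ifi204, Ifi205), Parp9, Parp14 and Dtx3l, 3 Schlafen genes, Phf11b and Phf11d, and 6 others (Ifi27l2a, Ifi35, Ifi44, Xaf1, Epsti1, Trim30a).

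The cells were immune cells of B16-GP33 tumours, a mouse melanoma line carrying an epitope of lymphocytic choriomeningitis virus glycoprotein, grown under the skin of the right flank of C57BL/6 mice. Mice received 200 ug of IgG as the control, 200 ug of anti-PD-1, 200 ug of anti-PSGL-1, or the combination of 200 ug of each blocking antibody, on days 8, 10 and 12, and tumours were taken on day 18. PD-1 and PSGL-1 are surface receptors that restrain T cells. CD45.2+ cells that excluded propidium iodide, a dye that enters dead cells, were sorted and measured by droplet single-cell RNA sequencing, so tumour cells were mostly left out by design. Each group was 1 library, and the labels do not say how many mice went into it. No difference between groups below therefore has a replicate check or a test, and a difference between libraries cannot be told apart from a difference between mice or preparations. Each of the 3 antibody groups was set against the same IgG library.

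Type I interferons bind the receptor made of Ifnar1 and Ifnar2, and the signal runs through Jak1 and Tyk2 to a complex that includes Stat2 and Irf9 and binds interferon-stimulated response elements in promoters. The induced genes encode proteins that sense viral nucleic acid, block translation, degrade RNA or trap virus particles. In tumours type I interferon is best known for its action on dendritic cells that prime T cells, and interferon-gamma, made by activated T and NK cells, induces many of the same genes.

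The promoters below are printed because they show the response element in genes with high and low ratios. Each is the 160 bases before the start of the gene in RefSeq (assembly GRCm38.p6, the mm10 build), 5′ to 3′ on the strand of the gene. Capitals mark every match, on either strand, to the long response element, which is the core GAAANNGAA followed by a further A, with overlapping matches joined. On the opposite strand the element is read as its reverse complement. Isg15 (chr4:156200819-156200978, minus strand) encodes a ubiquitin-like protein that is joined to other proteins. Ifit3 (chr19:34583369-34583528, plus strand) encodes a protein of the family that blocks translation of viral RNA. Rsad2 (chr12:26456453-26456612, minus strand) encodes viperin, which makes a chain-terminating nucleotide. Oas1a (chr5:120907526-120907685, minus strand) encodes a synthetase of oligoadenylates, which activate RNase L. It is the 1 member that was 1.5-fold or more lower with anti-PD-1 in the monocyte, macrophage and dendritic gates below.
Isg15: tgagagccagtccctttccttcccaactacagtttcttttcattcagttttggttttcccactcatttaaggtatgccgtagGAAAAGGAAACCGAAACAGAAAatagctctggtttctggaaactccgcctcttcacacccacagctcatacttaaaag
Ifit3: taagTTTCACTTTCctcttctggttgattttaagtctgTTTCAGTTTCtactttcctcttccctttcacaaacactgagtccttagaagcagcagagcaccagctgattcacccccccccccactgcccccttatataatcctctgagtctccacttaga
Rsad2: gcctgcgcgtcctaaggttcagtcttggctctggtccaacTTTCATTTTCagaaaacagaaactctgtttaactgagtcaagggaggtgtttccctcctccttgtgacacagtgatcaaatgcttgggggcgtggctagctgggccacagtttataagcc
Oas1a: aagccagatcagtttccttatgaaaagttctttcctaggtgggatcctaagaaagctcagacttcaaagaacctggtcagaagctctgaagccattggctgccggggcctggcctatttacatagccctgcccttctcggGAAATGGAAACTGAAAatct

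Counted from the gene start, the matches of Isg15 begin at positions -78, -72 and -66, those of Ifit3 at -156 and -122, that of Rsad2 at -120 and those of Oas1a at -20 and -14. RefSeq windows of 300 bases (250 before the start and 50 after it) were matched for 32 members. The long element was found in the windows of 17 of these 32 members (53.1%), against 3.99% of the 27025 genes with a window. The core GAAANNGAA, which every match to the long element also contains, was in the windows of 19 members (59.4%), against 9.76% of genes. Both motifs were searched on both strands, and a match is a match of letters and does not show binding.

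The libraries held 4614 to 9733 cell barcodes and 40913129 to 53303195 UMIs (unique molecular identifiers, each standing for 1 captured transcript). After filters, 24487 cells were kept, with a median of 3674.5 UMIs per cell in the IgG library and 6164 to 8392 in the others. Pairs of libraries shared 6 to 14 barcodes. Cells were placed in cell type gates by marker genes, none of which is a member, with thresholds set after the marker counts were seen. The gates held 20714 of the kept cells. Outside them lay 1916 of 8748 IgG cells and 702 of 5019 anti-PD-1 cells. The same counts were 796 of 6492 with anti-PSGL-1 and 359 of 4228 with the combination. The part of this uneven loss in the ratios to IgG was not tested. The T, NK, dendritic, monocyte and macrophage gates were compared in full, each holding 125 cells or more in every library. Monocyte and macrophage gates are ranges on 1 scale, the ratio of monocyte to macrophage markers, and 29.4% of monocyte-gate cells and 19.2% of macrophage-gate cells lay within a factor of 2 of the boundary. Of the monocyte-gate cells, 63.8% fell in clusters of that class. Levels are UMIs of a gene per 1000000 UMIs of the gate (CPM). A member counts as higher or lower where its CPM differed by 1.5-fold or more, among members with a mean of at least 5 CPM over the 4 libraries. Brackets after a ratio or share hold its 95% interval, which covers counting error only.

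The summed members were higher in monocytes, macrophages, dendritic cells and neutrophils than in the T, NK and B cell gates in every library. Sets of 4 values below are always IgG first, then anti-PD-1, then anti-PSGL-1, then the combination. The 42 members summed to 7413, 14061, 6220 and 8939 CPM in the monocyte gate. The macrophage gate held 6773, 11428, 5949 and 6837 CPM. Dendritic cells held 4100, 6720, 2725 and 3545 CPM. In these 3 gates the anti-PD-1 library was highest and the anti-PSGL-1 library lowest. The dendritic combination sum was 0.865 (0.839 to 0.891) times IgG, but 1.05 (1.01 to 1.08) times without Bst2 and 0.977 (0.947 to 1.01) times without plasmacytoid dendritic cells, both alternatives added after seeing the data. T cells held 2356, 2681, 2406 and 2209 CPM, and NK cells 1580, 1942, 1570 and 1695 CPM, a much narrower spread. Neutrophils, with 317, 34, 196 and 79 cells, held 6862, 7267, 7746 and 10706 CPM, and there the combination library was highest. B cells, with 176, 52, 160 and 38 cells, held 1654, 2654, 1978 and 1477 CPM.

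**Figure D1:**
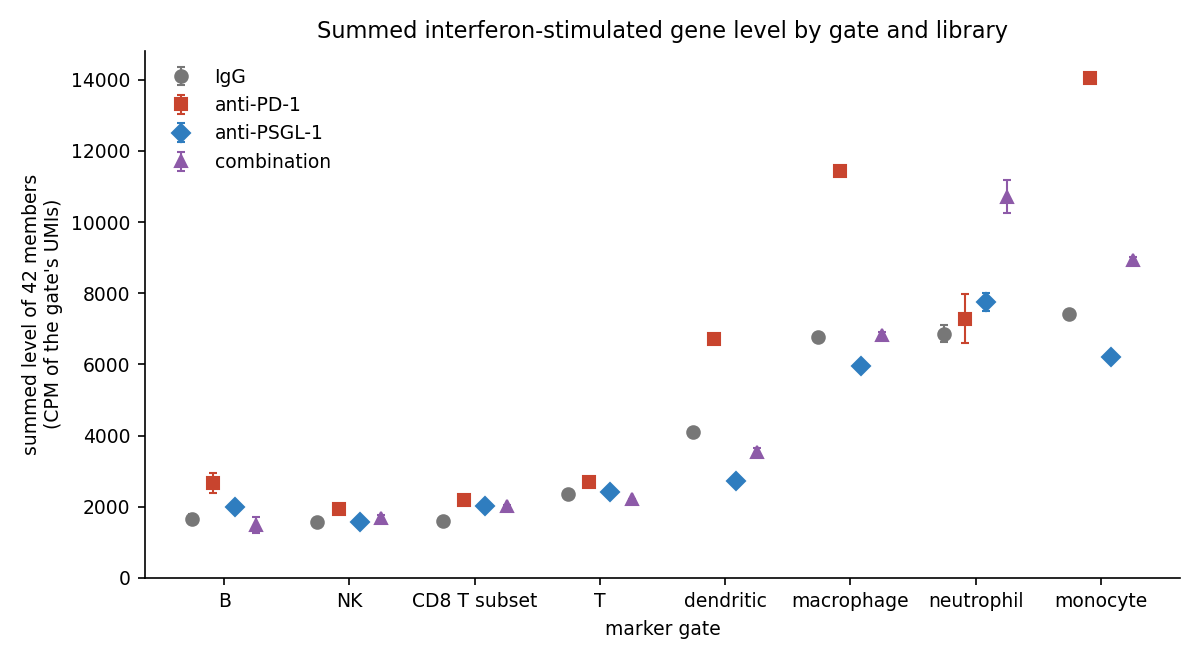
Summed level of the 42 interferon-stimulated genes (CPM) in each cell type gate and library, with 95% counting intervals. In the monocyte, macrophage and dendritic gates the anti-PD-1 library is highest (14061, 11428 and 6720 CPM) and the anti-PSGL-1 library lowest.

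A few members gave most of the UMIs. Ifi27l2a, which encodes a small membrane protein, made up 25.2, 23.3, 36.4 and 25.8% of the summed level in macrophages, and Isg15 14.2, 14.6, 8.35 and 12.5%. With Ifi27l2a left out, the sums stood at 2.04, 0.717 and 1.22 times the IgG sum in monocytes for the 3 antibody libraries in that order. The same ratios in macrophages were 1.73, 0.746 and 1.00. Leaving out the most abundant member thus left anti-PD-1 highest and anti-PSGL-1 lowest in both gates.

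Of 41 members measured in the monocyte gate, 38 were higher with anti-PD-1 than with IgG and 1 was lower. Of all 7807 genes measured there, 8.42% were higher and 9.12% lower. The median member ratio was 1.07 on the log2 scale, against -0.06 over all genes. In the macrophage gate 33 of 42 were higher and 1 lower, where 7.05% of all genes were higher and 7.11% lower, with medians of 0.79 and 0.00. In the dendritic gate 33 of 41 were higher and 1 lower, where 6.94% of all genes were higher and 7.30% lower, with medians of 0.89 and 0.01. The member that was lower was Oas1a in each of the 3 gates.

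**Figure D2:**
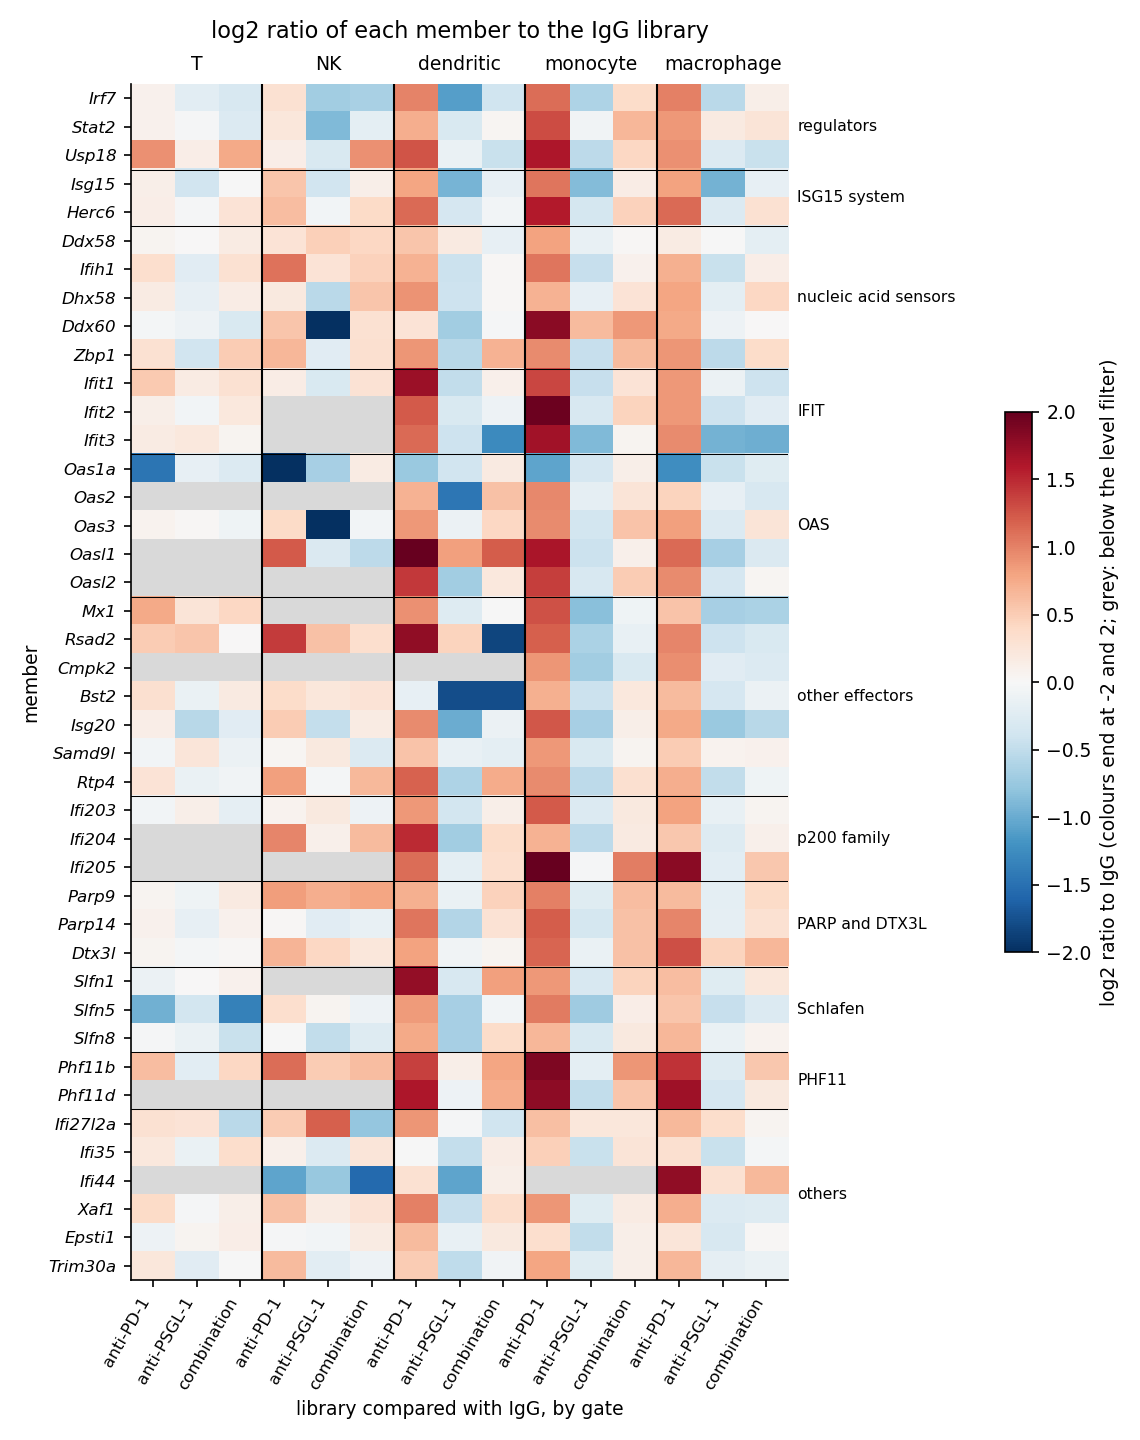
Ratio to IgG (log2) of each member in the T, NK, dendritic, monocyte and macrophage gates for the 3 antibody libraries; each value is 1 member. In the monocyte gate 38 of 41 measured members are 1.5-fold or more higher with anti-PD-1, and Oas1a is 0.481 times its IgG level.

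Among regulators, Irf7, the factor that amplifies interferon production, stood at 265, 578, 172 and 341 CPM in monocytes. It stood at 236, 473, 163 and 258 CPM in macrophages and at 135, 269, 63.1 and 102 CPM in dendritic cells. Its anti-PD-1 level was 2.18 (2.02 to 2.35), 2.00 (1.89 to 2.12) and 1.99 (1.78 to 2.22) times IgG in the 3 gates. Usp18, which takes Isg15 off proteins and damps the receptor, was at 23.8, 72.5, 16.5 and 31.5 CPM in monocytes, a ratio of 3.05 (2.39 to 3.94). Stat2, a subunit of the type I signalling complex, was at 39.0, 96.2, 37.1 and 62.3 CPM there, 2.47 (2.03 to 3.02) times IgG with anti-PD-1 and 1.60 (1.30 to 1.96) times with the combination. All 3 regulators were higher with anti-PD-1 in each of the 3 gates.

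Isg15 stood at 822, 1725, 453 and 916 CPM in monocytes and at 961, 1671, 496 and 854 CPM in macrophages. In both gates the anti-PD-1 library was highest, at 2.10 (2.01 to 2.19) and 1.74 (1.69 to 1.79) times IgG, and the anti-PSGL-1 library lowest, at 0.550 (0.523 to 0.579) and 0.516 (0.496 to 0.538) times. Herc6, the mouse ligase that attaches Isg15, was at 40.5, 121, 31.8 and 55.6 CPM in monocytes, 3.00 (2.48 to 3.64) times IgG with anti-PD-1.

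All 5 nucleic acid sensors were higher with anti-PD-1 in monocytes, 4 of 5 in macrophages and 3 of 5 in dendritic cells. Zbp1, a sensor of left-handed nucleic acid that can start cell death, was at 368, 711, 268 and 571 CPM in monocytes. It was the sensor with the most UMIs, and its combination level was 1.55 (1.45 to 1.66) times IgG. Ifih1, the sensor MDA5, was at 54.5, 115, 39.7 and 58.0 CPM, and Ddx60, a helicase tied to the same sensors, at 5.28, 18.3, 8.16 and 9.66 CPM. Ddx58, the sensor RIG-I, stood out from the others in macrophages, where its 35.8, 40.1, 35.6 and 31.5 CPM lay within 1.5-fold in every comparison. Its monocyte ratio with anti-PD-1 was 1.75 (1.43 to 2.15).

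The 3 Ifit genes were higher with anti-PD-1 in all 3 gates. Ifit2 was at 37.8, 148, 30.2 and 51.2 CPM in monocytes, a ratio of 3.90 (3.23 to 4.75), and Ifit3 at 38.4, 123, 20.9 and 39.7 CPM, a ratio of 3.20 (2.64 to 3.90). In macrophages Ifit3 was at 48.7, 93.6, 25.4 and 24.8 CPM, so that the combination, at 0.510 (0.419 to 0.619) times IgG, was as low as anti-PSGL-1, at 0.522 (0.435 to 0.624) times. Ifit1 was at 39.9, 101, 29.1 and 48.0 CPM in monocytes. One cell held 33.1% of the Ifit1 UMIs of IgG monocytes, 1 cell held 20.9% of those of combination monocytes, and 1 cell held 25.9% of those of combination macrophages, so these Ifit1 levels lean on single cells.

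Other effectors were higher with anti-PD-1 for all 7 genes in monocytes and 5 of 7 in macrophages. Rsad2 stood at 190, 436, 123 and 171 CPM in monocytes and 246, 483, 184 and 199 CPM in macrophages, 2.29 (2.10 to 2.51) and 1.96 (1.85 to 2.08) times IgG with anti-PD-1. Mx1, a GTPase known for blocking influenza viruses, was at 35.8, 86.3, 20.2 and 33.8 CPM in monocytes. Rtp4, a chaperone that restrains flaviviruses, was at 144, 276, 99.5 and 179 CPM there. Bst2, or tetherin, which holds budding virus at the cell surface, was at 327, 535, 244 and 378 CPM. Its dendritic levels ran differently, at 985, 876, 289 and 286 CPM, beside 180, 25, 11 and 2 plasmacytoid dendritic cells, the type that carries tetherin at rest, and 1112, 567, 119 and 57.0 CPM for the 5 plasmacytoid markers in that gate. The part of these cells in the dendritic Bst2 ratio was not tested.

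Ifi205 and the Phf11 genes were among the members with the larger anti-PD-1 ratios in monocytes. Ifi205, a p200 family protein that binds DNA, stood at 74.8, 344, 73.9 and 151 CPM, a ratio of 4.59 (4.02 to 5.27), and it was also higher with the combination, at 2.02 (1.76 to 2.34) times IgG. In macrophages it stood at 83.3, 290, 71.9 and 121 CPM, a ratio of 3.49 (3.18 to 3.82). Phf11b, a plant homeodomain finger protein, was at 70.7, 258, 62.1 and 130 CPM in monocytes, a ratio of 3.65 (3.18 to 4.21). Its relative Phf11d was at 31.7, 109, 22.6 and 46.7 CPM, a ratio of 3.45 (2.80 to 4.29). Ifi204, of the same family as Ifi205, was at 600, 967, 418 and 682 CPM with a smaller ratio of 1.61 (1.53 to 1.70). The p200, Phf11, Schlafen and Oas genes have close copies in the mouse genome, and how reads shared between copies were assigned is not given in the sources used here, so their single levels are uncertain.

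Dtx3l and Parp9, which form a ubiquitin ligase with an ADP-ribosyltransferase, and Parp14 were each higher with anti-PD-1 in all 3 gates. Dtx3l stood at 34.7, 85.1, 47.0 and 55.4 CPM in macrophages, a ratio of 2.45 (2.12 to 2.85). It was the member with the highest anti-PSGL-1 ratio in macrophages, 1.36 (1.15 to 1.60), and was also higher with the combination, at 1.60 (1.35 to 1.89) times IgG. Of the 3 Schlafen genes, Slfn5, which represses transcription, was at 216, 444, 132 and 238 CPM in monocytes, 2.05 (1.89 to 2.24) times IgG with anti-PD-1 and 0.609 (0.553 to 0.672) times with anti-PSGL-1. The smallest responses came from 2 of the other genes. Epsti1 was at 169, 213, 120 and 183 CPM and Ifi35 at 139, 194, 102 and 167 CPM in monocytes, with anti-PD-1 ratios of 1.26 (1.14 to 1.40) and 1.40 (1.25 to 1.57), under the 1.5-fold line.

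Of the 5 oligoadenylate synthetase genes, 4 were higher with anti-PD-1 in monocytes like most members, and Oas1a was lower. Oas3 was at 87.1, 167, 67.2 and 129 CPM, and Oasl2, a relative that also carries ubiquitin-like domains, at 112, 291, 89.5 and 159 CPM. Oasl1, which holds back translation of Irf7, was at 36.7, 113, 27.2 and 39.2 CPM, a ratio of 3.09 (2.53 to 3.79). Oas1a stood at 93.5, 45.0, 73.7 and 101 CPM, lowest with anti-PD-1, at 0.481 (0.401 to 0.575) times IgG. In macrophages Oas1a was at 85.4, 36.2, 62.4 and 72.3 CPM, a ratio of 0.424 (0.369 to 0.486). Dendritic cells held 32.4, 19.3, 24.7 and 36.7 CPM, T cells 9.23, 3.36, 8.18 and 7.66 CPM and NK cells 12.0, 2.65, 7.59 and 13.4 CPM. The anti-PD-1 library was lowest in all 5 gates, with ratios of 0.597 (0.415 to 0.841), 0.364 (0.259 to 0.505) and 0.220 (0.0656 to 0.588) in the last 3.

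The direction of Oas1a with anti-PD-1 could not be told in type 1 conventional dendritic cells or in neutrophils. In type 1 conventional dendritic cells it was at 7.88, 12.7, 5.81 and 15.8 CPM, and in neutrophils at 11.5, 16.0, 41.7 and 41.6 CPM, both with wide intervals (0.672 to 3.77 and 0.0295 to 12.5 for the anti-PD-1 ratio). Its neighbour Oas1g, no member and looked up after the Oas1a values were seen, was at 15, 8.95, 14 and 24.5 CPM in monocytes and 12.3, 8.60, 11.3 and 19.6 CPM in macrophages, also lowest with anti-PD-1, at 0.598 (0.385 to 0.923) and 0.700 (0.507 to 0.965) times IgG. Oas1a and Oas1g are near-identical copies, and what part shared reads have in either level was not tested. The Oas1a promoter printed above holds the response element, as do those of Isg15, Ifit3 and Rsad2.

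**Figure D3:**
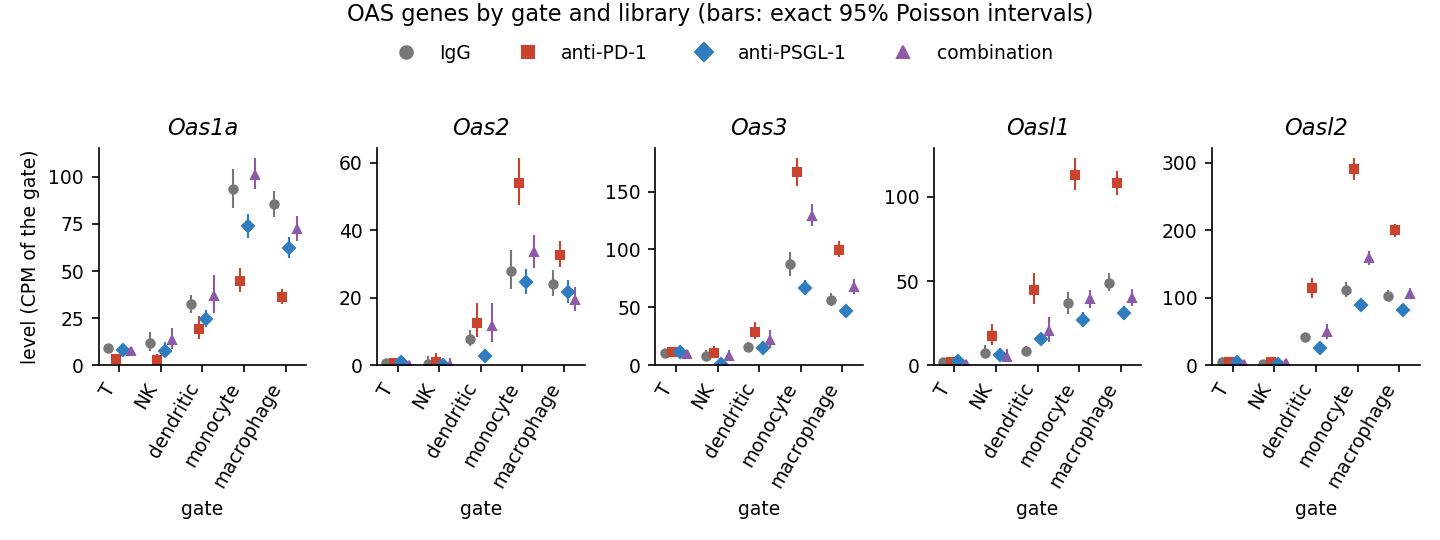
Level (CPM) of oligoadenylate synthetase genes by library and gate, with 95% counting intervals. In macrophages Oas1a is lowest with anti-PD-1 (36.2 CPM against 85.4 with IgG) while Oas3 is highest with it (99.9 against 56.5).

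Cell type markers also differed between the libraries in these gates. The 7 monocyte markers summed to 8206, 10670, 6786 and 10419 CPM in the monocyte gate and to 3931, 4851, 2926 and 4204 CPM in the macrophage gate. The 8 macrophage markers summed to 8043, 6322, 6822 and 6317 CPM in the macrophage gate. Neutrophil markers stood at 119 to 187 CPM and T cell markers at 13.1 to 21 CPM in the monocyte gate. The part of the monocyte to macrophage balance in the member ratios was not tested. Over all alternative settings tried, which include leaving out the cells near the boundary and clusters in place of gates, 36 to 39 members were higher with anti-PD-1 in monocytes and 32 to 37 in macrophages.

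With anti-PSGL-1 alone the members leaned lower in monocytes, macrophages and dendritic cells. Their sum in neutrophils was 1.13 (1.08 to 1.18) times IgG, but 1.03 (0.976 to 1.08) times without Ifi27l2a. In dendritic cells 13 of 41 were lower and 1 higher, where 9.58% of all genes were lower and 3.85% higher, and the median was -0.41 against -0.09. In monocytes 8 of 41 were lower and 1 higher, where 3.22% of all genes were lower and 4.61% higher, with medians of -0.35 and 0.00. In macrophages 5 of 42 were lower and 0 higher, where 1.68% of all genes were lower and 2.65% higher, with medians of -0.27 and -0.00. The anti-PSGL-1 library gave the lowest level of the 4 for 38 of 41 members in monocytes, 30 of 42 in macrophages and 31 of 41 in dendritic cells, where it was lowest for 24.4, 26.6 and 35.5% of all genes.

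The 5 members lower in macrophages were Isg15, Isg20, Ifit3, Oasl1 and Mx1. Isg20, an RNA exonuclease, was at 56.2, 94.6, 33.7 and 38.3 CPM there, 0.600 (0.511 to 0.704) times IgG with anti-PSGL-1. Mx1 was at 35.0, 51.9, 22 and 22.6 CPM, a ratio of 0.629 (0.514 to 0.769). Ifi27l2a went the other way, at 1704, 2666, 2167 and 1762 CPM, 1.27 (1.24 to 1.30) times IgG. In dendritic cells Irf7 with anti-PSGL-1 was 0.467 (0.408 to 0.534) times IgG and Isg15, at 415, 719, 218 and 372 CPM, 0.525 (0.488 to 0.565) times.

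Type 2 conventional dendritic cells, with 286, 74, 181 and 52 cells, had more members lower with anti-PSGL-1 than type 1 cells did. In them 25 of 42 members were lower with anti-PSGL-1 and 0 higher, where 8.76% of all genes were lower and 7.26% higher, and the median was -0.69 against -0.04. Without the plasmacytoid cells, an alternative added after seeing the data, 17 of 41 members of the dendritic gate were lower with anti-PSGL-1, where 4.15% of all genes were lower, and the medians were -0.55 and -0.03. Type 1 conventional dendritic cells, which present antigen to CD8 T cells, numbered 205, 70, 148 and 55, and in them 9 of 39 members were lower and 4 higher, where 8.29% of all genes were lower and 8.78% higher.

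In monocytes and macrophages the summed members were lower with the combination than with anti-PD-1. In the neutrophil gate they were higher, on 34 anti-PD-1 and 79 combination cells. There 1 cell held 11.2% of the member UMIs with anti-PD-1 and 1 cell 9.17% with the combination. The cluster of the neutrophil class held 6006, 8544, 7540 and 9826 CPM, a smaller step between these 2 libraries. In monocytes 6 of 41 were higher than IgG and 0 lower, where 6.26% of all genes were higher and 3.79% lower, with medians of 0.26 and 0.03. The 6 were Stat2, Zbp1, Ddx60, Parp9, Ifi205 and Phf11b. In macrophages 2 of 42 were higher, Ifi44 and Dtx3l, and 2 lower, Ifit3 and Mx1, where 4.10% of all genes were higher and 3.16% lower, with medians of 0.03 and 0.04. In dendritic cells 6 of 41 were higher and 3 lower, where 7.40% of all genes were higher and 10.5% lower. The shares of members that were higher, 14.6% in monocytes and 14.6% in dendritic cells, stood above the 6.26% and 7.40% of all genes, and the other shares lay near the background. Without plasmacytoid cells 3 of 41 members were higher in the dendritic gate, where 7.87% of all genes were. The stress gene Hspa1a, a marker of handling, stood at 1293, 1168, 768 and 715 CPM in macrophages and at 878, 1184, 659 and 332 CPM in monocytes. In dendritic cells it was at 213, 236, 210 and 328 CPM, and its part in the member ratios of the 3 gates was not tested.

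Set directly against the anti-PD-1 library, a comparison added after seeing the data, the combination was lower for 29 of 41 members in monocytes, 30 of 42 in macrophages and 28 of 41 in dendritic cells. Of all genes 4.0, 3.33 and 12.1% were lower in the 3 gates. Each gate had 1 member higher, Oas1a, where 6.51, 4.68 and 8.43% of all genes were higher. The median member ratios were -0.78, -0.78 and -0.77 on the log2 scale. Isg15 in the combination was 0.531 (0.512 to 0.550) times its anti-PD-1 level in monocytes and 0.511 (0.495 to 0.528) times in macrophages, and Ifit2 was 0.347 (0.301 to 0.399) and 0.470 (0.412 to 0.536) times. Oas1a was 2.26 (1.92 to 2.66) and 2.00 (1.72 to 2.31) times its anti-PD-1 level. In T cells 1 of 34 members was higher and 1 lower than with anti-PD-1 alone, where 1.53% of all genes were higher and 2.03% lower. In NK cells 2 of 33 were higher and 6 lower, where 11.5% of all genes were higher and 13.8% lower. For 40 of 41 members in monocytes, 41 of 42 in macrophages and 38 of 41 in dendritic cells the anti-PD-1 library was the highest of the 4, as it was for 22.3, 28.1 and 29.5% of all genes.

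Genes typical of interferon-gamma were set beside the members, and the difference between the lists was not tested. The list holds 18 genes, including guanylate-binding proteins, immunity-related GTPases, antigen processing genes and the chemokines Cxcl9 and Cxcl10, and some of them also respond to type I interferon. In monocytes 15 of 16 measured were higher with anti-PD-1 and 13 of 16 with the combination, where 8.42 and 6.26% of all genes were higher, with median log2 ratios of 1.66 and 0.99 beside 1.07 and 0.26 for the members. In macrophages the counts were also 15 and 13 of 16, where 7.05 and 4.10% of all genes were higher, with medians of 1.21 and 0.92. Of the 42 interferon-stimulated members 33 and 2 were higher there. In dendritic cells 13 and 11 of 16 were higher, where 6.94 and 7.40% of all genes were, with medians of 1.19 and 0.87. With anti-PSGL-1 none of the 16 was higher in these gates, and 4, 1 and 5 were lower in monocytes, macrophages and dendritic cells, where 3.22, 1.68 and 9.58% of all genes were.

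Iigp1, a GTPase that disrupts parasite vacuoles, stood at 42.1, 244, 44.2 and 201 CPM in macrophages, 5.80 (5.13 to 6.57) times IgG with anti-PD-1 and 4.78 (4.2 to 5.45) times with the combination. Gbp4 was at 53.0, 180, 51.3 and 137 CPM, 3.39 (3.02 to 3.80) and 2.57 (2.27 to 2.92) times IgG. Iigp1 and Gbp4 were high in both libraries that received anti-PD-1. The members in combination macrophages had a median log2 ratio of 0.03, with 2 of 42 higher than IgG and 2 lower. Rsad2, under the 1.5-fold line, was 0.810 (0.752 to 0.872) times IgG there. In the T gate Ifng itself was at 178, 478, 175 and 356 CPM, 2.69 (2.57 to 2.81) times IgG with anti-PD-1 and 2.00 (1.91 to 2.09) times with the combination. Whether the T cell Ifng level bears on the levels in phagocytes was not tested.

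**Figure D4:**
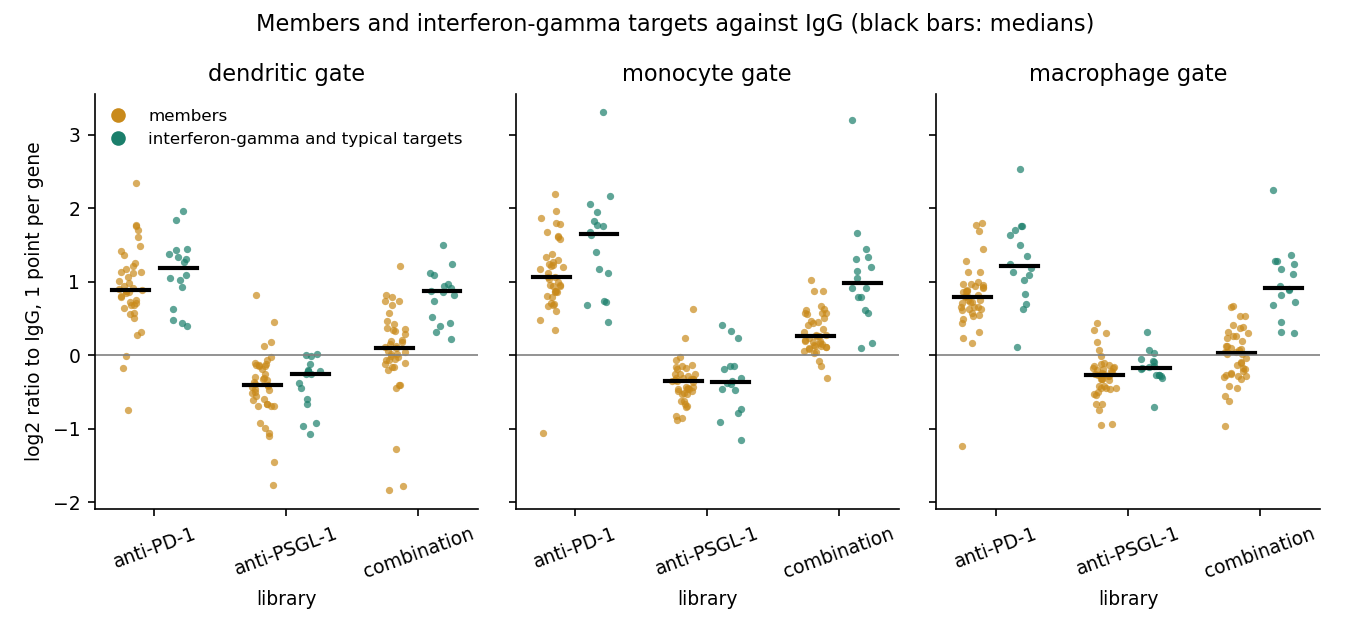
Ratio to IgG (log2) of the interferon-stimulated members and of the interferon-gamma list by gate and antibody library; each value is 1 gene. In macrophages the members have a median of 0.79 with anti-PD-1 and 0.03 with the combination, and the interferon-gamma list 1.21 and 0.92.

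The lymphoid gates showed smaller differences. In T cells 3 of 34 members were higher with anti-PD-1 and 2 lower, where 3.1% of all genes were higher and 5.97% lower, and the median was 0.12 against 0.00. With anti-PSGL-1, 0 were higher and 0 lower, where 0.857% of all genes were higher and 0.672% lower. With the combination 1 was higher and 1 lower, where 3.29% of all genes were higher and 6.25% lower. Usp18 was at 6.36, 12.0, 6.97 and 10.8 CPM, 1.89 (1.47 to 2.45) times IgG with anti-PD-1 and 1.69 (1.33 to 2.17) times with the combination. Phf11b was at 56.1, 85.9, 48.4 and 74.6 CPM, a ratio of 1.53 (1.40 to 1.67), and Mx1 at 4.51, 7.62, 5.40 and 6.00 CPM, a ratio of 1.69 (1.24 to 2.32). Slfn5 ran the other way, at 10.5, 5.36, 8.13 and 4.10 CPM.

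Depth differed between the T cells of the libraries. Median UMIs per T cell were 3569 with IgG, 8075 with anti-PD-1, 5674 with anti-PSGL-1 and 9641.5 with the combination. Among T cells of 3000 to 15000 UMIs alone, 11 of 35 members were higher with anti-PD-1, 5 with anti-PSGL-1 and 11 with the combination, where 2.94, 1.84 and 3.55% of all genes were higher. The T gate also mixes subsets, with regulatory T cells numbering 330, 88, 147 and 38 and holding 4264, 7309, 3358 and 3443 CPM of the members. Ifi27l2a made up 49.3, 62.4, 51.1 and 37.9% of the regulatory T cell sums, which were 2161, 2749, 1641 and 2139 CPM without it. CD8 T cells held 1610, 2195, 2007 and 2026 CPM, and 1208, 1523, 1277 and 1576 CPM without Ifi27l2a.

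Within CD8 T cells the IgG library was lowest for 19 of 32 measured members and highest for none, where it was lowest for 20.5% and highest for 22.6% of all genes. Counts of higher members were 7 with anti-PD-1, 5 with anti-PSGL-1 and 4 with the combination, where 3.32, 1.48 and 3.51% of all genes were higher, and none was lower in any of the 3, where 4.23, 0.810 and 3.21% of all genes were lower. Rsad2 was among the 5 with anti-PSGL-1, and 1 cell held 27.6% of the Rsad2 UMIs of the anti-PSGL-1 T gate. Ifit1 was at 6.45, 16.5, 14.3 and 16.5 CPM, 2.56 (1.90 to 3.5), 2.22 (1.64 to 3.06) and 2.57 (1.93 to 3.47) times IgG. Zbp1 was at 80.9, 121, 71.9 and 152 CPM, highest with the combination at 1.88 (1.73 to 2.04) times IgG. Ifi27l2a, at 402, 673, 730 and 450 CPM, was highest with anti-PSGL-1. The combination was highest for 14 of the 32 members and anti-PD-1 for 11, where they were highest for 32.1 and 24.5% of all genes. Of 6 genes of dissociation stress, 4 were lower with the combination in CD8 T cells, with a median of -0.75 (log2), and their part in the ratios was not tested.

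In NK cells, which numbered 697, 483, 383 and 229, 11 of 33 members were higher with anti-PD-1 and 2 lower, where 5.80% of all genes were higher and 9.15% lower. Against IgG, 2 members were higher and 6 lower in the anti-PSGL-1 library, where 7.90% of all genes were higher and 9.58% lower. The combination gave 5 higher and 3 lower, where 8.28% of all genes were higher and 14.4% lower. Phf11b was at 21, 45.5, 29.9 and 32.0 CPM, 2.16 (1.48 to 3.21) times IgG with anti-PD-1. Oasl1 was at 7.52, 17.5, 6.17 and 5.24 CPM, a ratio of 2.32 (1.23 to 4.60). Irf7 was at 68.7, 85.2, 42.2 and 43.7 CPM, lower in both libraries that received anti-PSGL-1, with ratios of 0.615 (0.466 to 0.809) and 0.636 (0.474 to 0.849). The stress gene Hspa1a, a marker of handling, stood at 52.6, 393, 159 and 5.82 CPM in NK cells, and its part in the NK ratios was not tested.

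Type 1 conventional dendritic cells had larger ratios than the whole dendritic gate. Their members summed to 2217, 5219, 1923 and 3003 CPM, 2.35 (2.26 to 2.46) times IgG with anti-PD-1 and 1.35 (1.29 to 1.43) times with the combination. With anti-PD-1, 35 of 39 members were higher and 0 lower, where 17.4% of all genes were higher and 10.0% lower, with medians of 1.44 and 0.07. With the combination 23 of 39 were higher and 0 lower, where 17.9% of all genes were higher and 7.89% lower, with medians of 0.74 and 0.13. Ddx58, at 2.10, 15.1, 2.11 and 3.95 CPM, and Ifit3, at 3.15, 17.4, 0.528 and 5.26 CPM, reached the 5 CPM mean only through anti-PD-1. Both were among the 35 and the 23, with combination ratios of 1.88 (0.275 to 11.1) and 1.67 (0.347 to 7.04). Oas1a was in both counts too, at 1.62 (0.672 to 3.77) and 2.00 (0.857 to 4.59) times IgG. Mx1, at 1.59 (0.886 to 2.80) times, was among the 35. Several others of the 23 also had intervals that include 1, such as Isg20 at 1.69 (0.953 to 2.96) times. Rtp4 stood at 6.30, 48.7, 0 and 40.8 CPM, 7.72 (3.99 to 16.1) and 6.47 (3.23 to 13.8) times IgG with anti-PD-1 and the combination, and the count of 0 with anti-PSGL-1 allows up to 1.59 CPM. Slfn1 was at 8.4, 64.9, 10.0 and 34.2 CPM, and Isg15 at 151, 488, 67.6 and 267 CPM. In type 2 cells, which take part in priming CD4 T cells, 34 of 42 members were higher with anti-PD-1 and 1 lower, where 13.4% of all genes were higher and 11.8% lower. Of the same 42, 2 were higher and 8 lower with the combination, where 11.1% of all genes were higher and 14.5% lower. The difference between the dendritic subsets in the combination was not tested.

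Monocyte subsets kept the same order at the top. Cells with the classical markers Chil3 and Vcan held 7694, 14551, 6313 and 9343 CPM of the members. Cells with Ace and Treml4, markers of patrolling monocytes, numbered 53, 75, 70 and 99 and held 4381, 10284, 5111 and 6296 CPM. In the latter the anti-PSGL-1 sum was above that of IgG, at 1.17 (1.08 to 1.26) times, but at 1.05 (0.955 to 1.16) times without Ifi27l2a.

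The higher sums came from many cells. Each cell was thinned to 2000 UMIs, leaving out shallower cells. The share of monocytes with at least 20 member UMIs was then 22.3% (19.2 to 25.6) of 682 cells with IgG, 66.7% (63.0 to 70.2) of 685 with anti-PD-1, 16.2% (13.8 to 18.8) of 876 with anti-PSGL-1 and 35.8% (32.1 to 39.7) of 642 with the combination. Median member UMIs per thinned monocyte were 12, 25, 10 and 16. In macrophages the shares were 20.9% (18.7 to 23.3) of 1229 cells, 51.1% (48.3 to 54.0) of 1224, 17.7% (15.4 to 20.2) of 996 and 21.5% (18.5 to 24.8) of 673. The shares in T cells were 3.61, 6.20, 4.13 and 3.08%, and in NK cells 1.31, 1.29, 0.809 and 1.75%. The single cell with the most member UMIs held 0.547 to 1.52% of them in the monocyte and macrophage gates of the 4 libraries.

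**Figure D5:**
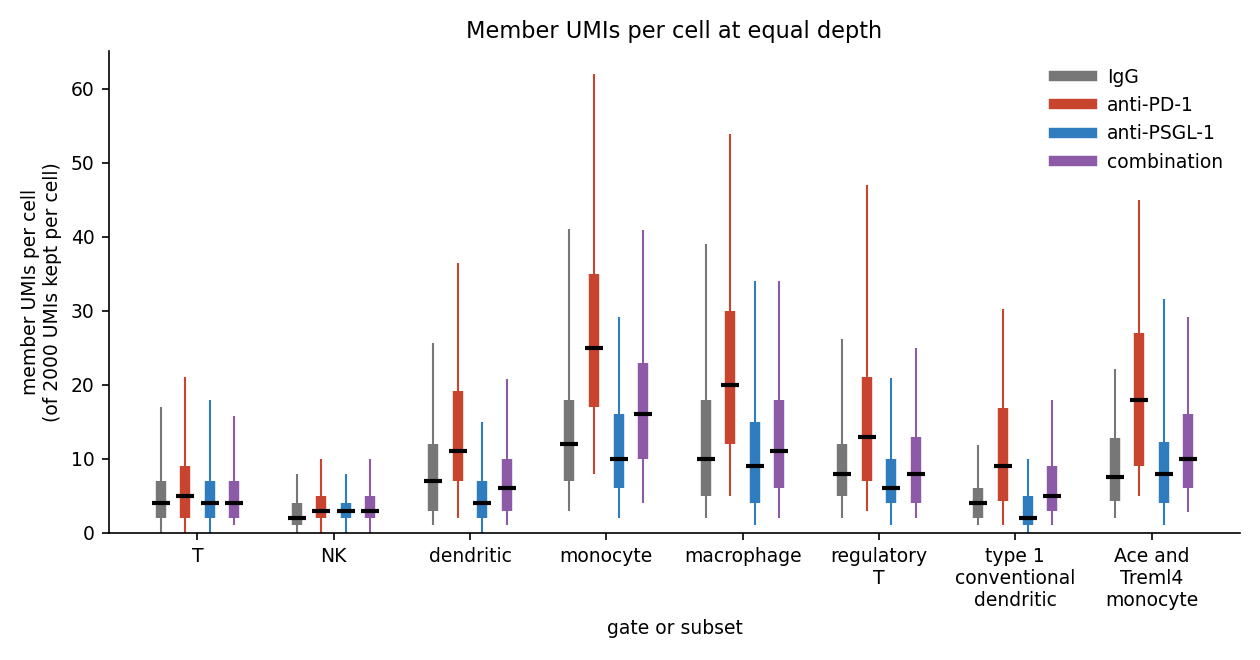
Member UMIs per cell after thinning each cell to 2000 UMIs, by gate and library. Median monocytes hold 12 member UMIs with IgG, 25 with anti-PD-1, 10 with anti-PSGL-1 alone and 16 where both were given.

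Across single thinned cells the members varied together weakly. In macrophages (4122 cells) Isg15 had a Pearson correlation of 0.54 with the sum of the other members, averaged over the 4 libraries, followed by Irf7 (0.44), Ifi204 (0.42) and Rsad2 (0.40). In T cells (8633 cells) the highest were Isg15 (0.35) and Zbp1 (0.31). The 10 genes outside all lists most like the summed members in macrophages were Ifitm3 (0.51), Ms4a4c (0.48), Pyhin1 (0.38), Ly6e (0.37), Ifi47 (0.36), Pnp (0.35), Mndal (0.35), Samhd1 (0.33), Ms4a6c (0.33) and Rnf213 (0.33). In T cells they were Samhd1 (0.31), Malat1 (0.29), B2m (0.29), H2-K1 (0.28), Ly6a (0.28), H2-D1 (0.28), Shisa5 (0.27), Ifi47 (0.24), Ly6e (0.23) and Srgn (0.22). Cells of 1 library share its preparation, so these values describe the libraries.

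Genes upstream of the members were measured in the same gates. Ifnar1 and Ifnar2, named here after their values were seen, stood at 119, 126, 123 and 103 CPM and at 106, 156, 111 and 106 CPM in macrophages, within 1.5-fold of IgG. Of 12 receptor and signalling genes, 3 were higher and 1 lower with anti-PD-1 in macrophages, where 7.05% of all genes were higher and 7.11% lower. The combination library had 3 higher and 0 lower, where 4.10% of all genes were higher, and the anti-PSGL-1 library 0 in either direction. Socs1, an inhibitor of Jak kinases, was at 65.9, 244, 52.6 and 147 CPM, 3.70 (3.34 to 4.10) times IgG with anti-PD-1. Ifngr1, the ligand-binding chain of the interferon-gamma receptor, was the gene that was lower, at 189, 107, 180 and 157 CPM, 0.563 (0.517 to 0.613) times IgG.

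Ifnb1, which encodes the type I interferon interferon-beta, had 38, 198, 23 and 43 UMIs in 6, 16, 8 and 8 of the kept cells. Of the 116 Ifnb1 UMIs in anti-PD-1 monocytes, 115 came from 1 cell, so its level of 25.9 CPM there is a value of that cell. In macrophages Ifnb1 had 34, 13, 1 and 39 UMIs, in dendritic cells 2, 0, 4 and 0, and in T, NK, B and neutrophil gates 0. Cells outside the 7 gates held 2, 69, 17 and 0 of the UMIs. Of 15 listed genes of interferon production, 9 were measured in monocytes, of which 2 were higher with anti-PD-1, 0 with anti-PSGL-1 and 1 with the combination, where 8.42, 4.61 and 6.26% of all genes were higher. Ifnb1 is among the 9 through the 1 anti-PD-1 cell above. It had 0 UMIs in IgG monocytes, so it had no ratio and could not be counted as higher. Sorted cells leave out the tumour and stromal cells, whose interferon transcripts were not measured.

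The ratios of members with and without the response element overlapped. Among members with the long element in their promoter window the median anti-PD-1 ratio was 1.07 (log2) in monocytes for 17 members, and it was 1.15 for the 14 without. In macrophages the medians were 0.80 for 17 and 0.93 for 15, and in dendritic cells 0.79 for 17 and 1.00 for 14. The ranges ran from -1.06 to 2.20 with the element and from 0.34 to 1.96 without in monocytes, where the lowest value with the element was that of Oas1a and the highest that of Ifi205.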

How the data were processed

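Droplet single-cell libraries (10X Genomics Chromium) were deposited by the authors as raw UMI counts per gene and cell. Cell Ranger 3.1.0, FastQC and the mm10 build are named per the submitters' processing notes. Other upstream steps: not given in the sources used here. Cells with under 300 genes, over 10% mitochondrial UMIs or over 60000 UMIs were left out. Scrublet called 127 of 25954 cells by its own threshold and was taken not to have worked, so the highest-scoring 0.8% per 1000 cells of each library (1467 cells) were removed.

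Gates used fixed markers with thresholds set after seeing marker counts. Raw counts were summed per gate and library and given per 1000000 UMIs of the gate (CPM). Intervals are exact 95% Poisson for levels, exact conditional for ratios and Clopper-Pearson for shares, and cover counting error only: PCR and cell-to-cell differences are outside them. A count of 0 allows up to 3 counts. With 1 library per group no test was run. The summing and calling steps were tested on simulated data. Members, gene lists and comparisons were chosen with earlier results of these data known. Members were named where past 1.5-fold in a gate or among the 5 highest there; other genes came from the pathway lists, at most 4 each way per gate and comparison, and the 10 genes most correlated with the members in T and macrophage gates. Alternatives were another weighting of cells, a depth range, no filter, centring, clusters in place of gates, and leaving out Ifi27l2a, Bst2, boundary cells or plasmacytoid cells. Analyses used Python 3.11.15, NumPy 2.4.6, SciPy 1.17.1, pandas 2.3.3, Scanpy 1.11.5 and Matplotlib 3.10.9. One gene of the signalling list is not reported here. Gene positions are from GENCODE M21 and promoter windows from RefSeq.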

Additional observations from a re-analysis of the deposited data

Results flagged for a closer look

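The summed members lay above IgG in some cell types and below it in others under the same antibody, with intervals that cover counting error only. With anti-PSGL-1 the sum was 1.02 times IgG in T cells, 1.2 times in B cells, 1.13 times in neutrophils and 1.25 times in CD8 T cells, and 0.665 times in dendritic cells, 0.839 times in monocytes and 0.878 times in macrophages. With the combination it was 1.07 times IgG in NK cells, 1.56 times in neutrophils, 1.21 times in monocytes and 1.26 times in CD8 T cells, and 0.937 times in T cells and 0.865 times in dendritic cells. The dendritic value passed to 1.05 times without Bst2 and to 0.977 times without plasmacytoid cells, beside 180 plasmacytoid cells with IgG and 2 with the combination, and type 1 conventional dendritic cells stood at 1.35 times. Without Ifi27l2a the anti-PSGL-1 sums were 0.935 times IgG in T cells and 1.06 times in CD8 T cells. They were 1.11 (0.973 to 1.28) times in B cells and 1.03 (0.976 to 1.08) times in neutrophils. The dendritic, monocyte and macrophage values were 0.608, 0.717 and 0.746 times. In T and NK cells the combination sums without Ifi27l2a were 1.06 and 1.08 times IgG. In neutrophils, monocytes, CD8 T cells and dendritic cells they were 1.47, 1.22, 1.30 and 0.883 times. These differences between cell types were not tested, since each group was 1 library. CD8 T cells are part of the T gate, so their values are not separate measurements. The neutrophil ratios rest on 79 combination cells and 317 IgG cells, in which Isg15 stood at 3558 and 1777 CPM.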

How the results depend on the processing

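No paired analysis was possible because each group is 1 library. Under the alternative settings, 178 counts of members stayed within 1.5 times and 46 moved. Of the ratios of single members, 435 moved by less than their counting interval, 69 by more, and no ratio past the 1.5-fold line changed direction. Of the summed ratios 20 stayed within their interval and 46 moved, many by little beside narrow counting intervals. The anti-PD-1 counts of higher members in monocytes, macrophages and dendritic cells were not among those that moved. The cause of each move below was not tested. The share of all genes past the fold under the same setting is not printed beside these counts. They show only how far a count moved, and not whether members differed from other genes. The range of 3000 to 15000 UMIs left 199, 326, 308 and 204 NK cells. With clusters computed without the members and pathway genes in place of gates, anti-PSGL-1 had 1 member higher than IgG in NK cells, 0 in dendritic cells and 0 in monocytes, and 3 lower in macrophages. Dendritic cells then had 0 lower with anti-PD-1, macrophages 4 higher and 1 lower with the combination, and NK cells 1 higher with the combination against anti-PD-1. With each cell weighing the same, T cells had 6 higher and 1 lower with anti-PD-1, 1 higher with anti-PSGL-1, 2 lower with the combination and 5 lower with the combination against anti-PD-1. NK cells then had 5 higher with anti-PSGL-1 and 11 higher and 1 lower with the combination, and monocytes 5 lower with anti-PSGL-1. With no filter on the mean level, T cells had 5 higher and 4 lower with anti-PD-1, 3 higher and 1 lower with anti-PSGL-1, 7 lower with the combination, and 2 higher and 6 lower with the combination against anti-PD-1. NK cells then had 4 lower with anti-PD-1, 5 higher with anti-PSGL-1, 9 higher and 7 lower with the combination, and 4 higher and 10 lower with the combination against anti-PD-1. Among cells of 3000 to 15000 UMIs, T cells had 11 higher and 1 lower with anti-PD-1, 5 higher with anti-PSGL-1, and 11 higher and 0 lower with the combination. NK cells then had 20 higher with anti-PD-1, 6 higher with anti-PSGL-1 and 1 higher with the combination against anti-PD-1. Dendritic cells had 0 higher and 8 lower with anti-PSGL-1 and 12 higher with the combination, and monocytes 0 higher with anti-PSGL-1. With ratios centred on the median of all genes, T cells had 1 higher with anti-PSGL-1. Without cells near the boundary, added after seeing the data, monocytes had 0 higher with anti-PSGL-1 and 2 lower with the combination, and without plasmacytoid cells, also added, dendritic cells had 3 higher with the combination. The dendritic combination sum, 0.865 times IgG, was 1.03 times with clusters and 1.05 times without Bst2. Depth limits the levels of members under 10 CPM, many of them in the T and NK gates.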
